A study of Homo sapiens with 24 samples.

Results

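High expression of the stress gene DDIT4 was found in 10 of 24 arrays, in 2 forms that differ in which other stress and inflammatory genes go with it. It encodes REDD1, a stress-induced brake on the growth kinase mTORC1, and these 10 arrays were chosen by a DDIT4 value above a limit of 9.0 on the log2 scale. The lowest array inside the limit was at 9.67 and the highest array outside it at 8.35. The 10 arrays were divided by how alike they were over all genes into set A, with 4 arrays, and set B, with 6 arrays. Because the sets were chosen from the same expression values, every difference between them is a description, was not tested and supports nothing. The treatment and time labels played no part in the choice, and these were tested.

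All RNA came from Huh7.5.1, a human hepatoma line that is permissive for hepatitis C virus, and every sample title carries the word novirus. The cells received silymarin, a milk thistle seed extract, or the solvent DMSO for 4, 8 or 24 h, and each array, an Affymetrix Human Gene 1.0 ST, read 1 sample. The silymarin dose was not given in the labels, and they name no separate cultures, so that p-values measure only the spread between these samples, which may be technical. Set A holds DMSO replicate 4 at 4 h, silymarin replicate 1 at 4 h, silymarin replicate 1 at 8 h and DMSO replicate 3 at 24 h. Set B holds DMSO replicate 1 at 4 h, DMSO replicates 1, 4 and 5 at 8 h, silymarin replicate 3 at 8 h and silymarin replicate 1 at 24 h. Values of set A are given in this order throughout. The other 14 arrays had DDIT4 between 7.50 and 8.35 and carry both treatments as well.

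The markers of the 2 forms belong to the integrated stress response and to inflammation. When amino acids run short, misfolded proteins build up or haem is lacking, kinases phosphorylate the initiation factor eIF2, general translation slows and the transcription factor ATF4 is translated. ATF4 induces genes of amino acid synthesis and transport, among them the asparagine synthetase ASNS and the cystathionine gamma-lyase CTH, and also DDIT4 and the pro-apoptotic factor DDIT3, known as CHOP. CXCL10 is a chemokine driven by interferon and by NF-kB, which in hepatoma cells answers to inflammatory signals.

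The windows upstream of 5 genes that differ between the forms were searched for elements through which such factors are known to act, and the 3 windows that held a match are printed. ASNS stood higher in set B, DDIT3 in set A and CXCL10 lowest in set B. The 2 windows without a match were those of CTH, searched for TGATGNAA, and of the stress regulator PPP1R15A, searched for TGATGNAA and TGANTCA. Each is the 250 bases before the first listed RefSeq start of the gene, in build GRCh38.p14, read 5′ to 3′ on the gene's strand. Capitals mark matches, on either strand, to the C/EBP-ATF response element TGATGNAA in ASNS, the AP-1 element TGANTCA in DDIT3, and the NF-kB consensus and the interferon element GAAANNGAAA in CXCL10.

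ASNS, chr7:97872409-97872658, minus strand: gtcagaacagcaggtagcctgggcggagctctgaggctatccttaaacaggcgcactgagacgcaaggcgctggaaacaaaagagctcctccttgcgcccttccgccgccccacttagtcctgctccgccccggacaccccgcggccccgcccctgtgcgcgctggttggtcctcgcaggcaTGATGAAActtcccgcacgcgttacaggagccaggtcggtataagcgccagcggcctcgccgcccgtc

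DDIT3, chr12:57520515-57520764, minus strand: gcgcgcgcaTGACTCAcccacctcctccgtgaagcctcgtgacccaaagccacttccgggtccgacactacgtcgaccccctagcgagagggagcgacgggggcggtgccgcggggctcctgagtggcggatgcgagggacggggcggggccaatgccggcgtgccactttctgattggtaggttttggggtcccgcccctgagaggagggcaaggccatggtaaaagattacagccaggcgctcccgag

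CXCL10, chr4:76023498-76023747, minus strand: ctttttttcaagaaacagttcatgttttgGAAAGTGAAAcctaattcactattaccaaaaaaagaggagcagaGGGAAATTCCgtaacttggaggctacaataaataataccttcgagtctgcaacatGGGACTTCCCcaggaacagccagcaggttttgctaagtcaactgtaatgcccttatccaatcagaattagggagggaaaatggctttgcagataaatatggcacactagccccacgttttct

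The ASNS window held 1 C/EBP-ATF element, whose first base lies 68 bases before the start. The DDIT3 window held 1 AP-1 element beginning 241 bases before the start, and no match to TGATGNAA within these letters. CXCL10 had NF-kB matches beginning 177 and 122 bases before its start, and an interferon element beginning 221 bases before it. Among all 35116 windows of this length, 3.14% held TGATGNAA, 6.57% TGANTCA, 9.96% the NF-kB consensus and 3.02% GAAANNGAAA. RefSeq windows matched 570 of the 703 genes that were higher in every array of set A than in any array of set B, and 471 of the 600 that were lower. TGATGNAA stood in 3.51% of the former, 3.18% of the latter and 3.13% of the 14122 measured genes with a window. The NF-kB consensus stood in 14.91%, 16.14% and 14.46% of the same 3 groups. TGANTCA stood in 7.19%, 5.1% and 7.06% of them, and GAAANNGAAA in 3.33%, 2.34% and 3.52%. In these groups a gene counted if the window of any of its listed starts held a match. Such shares are not of the same kind as those of single windows. These matches are descriptions of letters, not of bound factors.

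The arrays within each set resembled each other to different degrees. For each pair of arrays, the deviations from the mean of all 24 arrays were correlated over the 2000 most variable genes. The 6 pairs within set A had r between 0.28 and 0.62, the 15 pairs within set B between 0.25 and 0.77, and the 24 pairs across the sets between -0.24 and 0.57. Among the 10 arrays, each had its nearest neighbour in its own set. Within set B, DMSO replicate 1 at 4 h and DMSO replicates 1 and 4 at 8 h stood apart, with r from 0.73 to 0.77 among themselves. They correlated with the other 3 arrays of set B at 0.25 to 0.53 and with set A at -0.24 to 0.16. The other 3 arrays of set B had r from 0.616 to 0.675 among themselves, so set B was itself divided. With set A they correlated at 0.09 to 0.57 (median 0.32), near their median of 0.379 with the closest 3. The border between the sets was thus not sharp. Some differences are therefore also given against set B without its closest 3 arrays. A difference given alone is over all 6 arrays of set B and may be smaller or larger without those 3. All pairs share the scale of one normalization, and median log2 values were alike in set A (7.04 to 7.12), set B (7.09 to 7.17) and the other arrays (7.06 to 7.18).

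**Figure D1:**
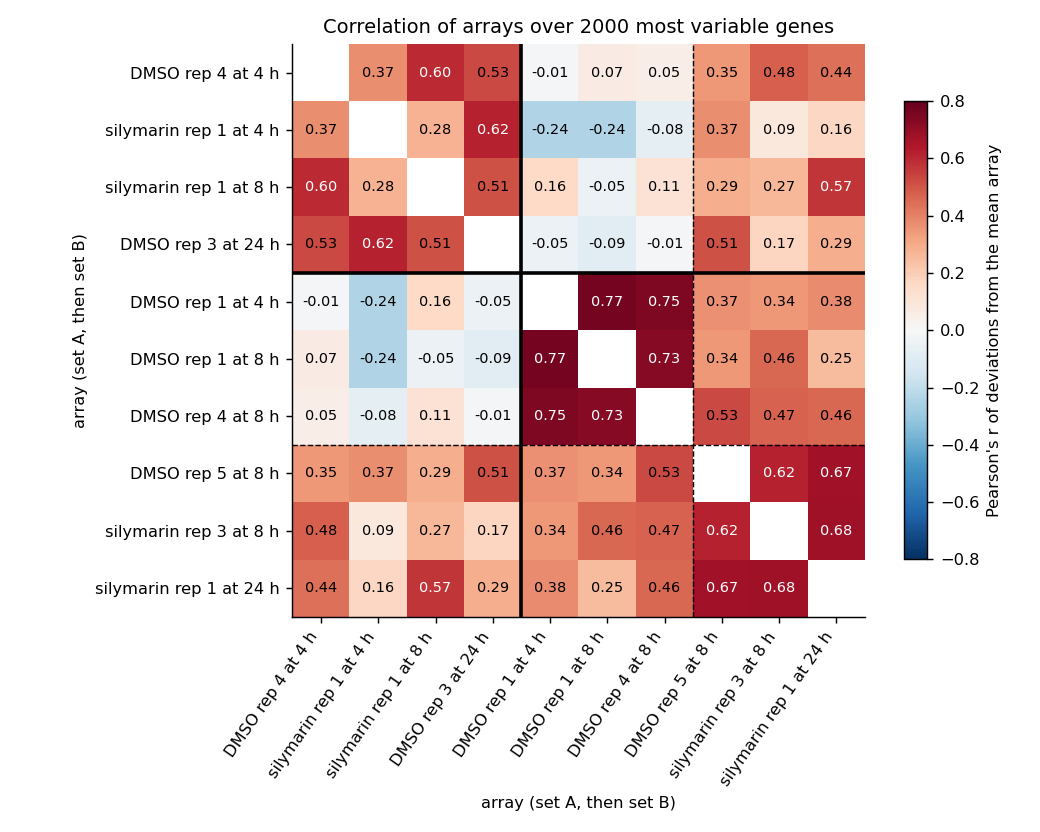
Each cell gives Pearson's r between the deviations of 2 arrays from the mean of all 24 arrays over the 2000 most variable genes. The solid line divides set A from set B. The dashed line divides the closest 3 arrays of set B (0.73 to 0.77 among themselves) from its other 3 (0.616 to 0.675).

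Both sets carried the stress response, in unequal proportions of its parts. DDIT4 was 10.01, 10.34, 10.14 and 10.30 in set A, and in set B its lowest, median and highest values were 9.67, 10.08 and 10.28. These ranges overlap, so the gene that picked the arrays does not tell the 2 forms apart. CHAC1, a glutathione-degrading enzyme induced by ATF4, was likewise high in both, at 10.93 to 11.22 in set A and 10.34 to 11.11 in set B against 8.13 to 9.35 in the other arrays. ATF4 itself differed by -0.05 between the sets, at 11.88 ± 0.06 (SD, n = 4) in set A and 11.93 ± 0.09 (SD, n = 6) in set B, and averaged 11.44 in the other arrays. STC2, a secreted glycoprotein of the same response, was 9.79 in set A and 9.77 in set B against 8.46. The arrays read RNA from whole cultures, so a shift in every cell and a larger shift in some of the cells cannot be told apart.

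DDIT3 was higher in set A. Its values there were 10.31, 10.74, 10.58 and 10.51, and in set B they ran from 9.62 through a median of 10.03 to 10.23. Every array of set A lay above every array of set B, by 0.55 on average or 1.46-fold, and the other 14 arrays reached 9.51 at most. Against the 3 arrays of set B outside its closest 3, the difference was 0.42.

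ASNS and CTH went the other way. ASNS, which makes asparagine from aspartate, was between 10.49 and 10.63 in set A and between 10.85 and 11.26 in set B, a difference of -0.50, and averaged 9.63 in the other arrays. CTH, which releases cysteine from cystathionine, was 9.73 to 9.80 in set A and 9.97 to 10.43 in set B, a difference of -0.45, against 8.54 on average elsewhere. Both sets thus stood above the other arrays for both enzymes, and set B stood higher.

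CXCL10 was lowest in set B. Set A had 7.50, 7.34, 7.98 and 7.10, and the other 14 arrays ran from 7.45 to 9.51. The closest 3 arrays of set B had 5.87, 5.11 and 4.57, and its other 3 arrays 6.07, 6.37 and 7.15. The difference between the sets was 1.62, or 3.08-fold, and 0.95 without the closest 3 arrays. One array of set B, silymarin replicate 1 at 24 h at 7.15, lay above the lowest array of set A.

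**Figure D2:**
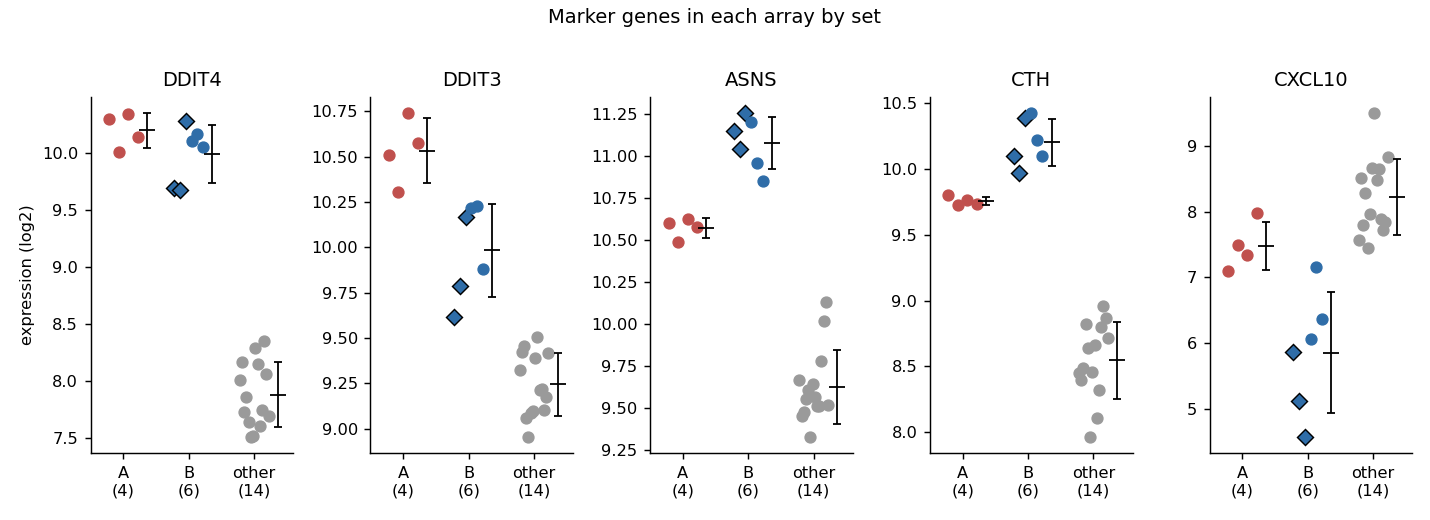
Log2 expression of DDIT4 and 4 marker genes in every array of set A (4 arrays), set B (6 arrays, the closest 3 as outlined diamonds) and the other 14 arrays, with mean and SD as bars. DDIT4 overlaps between the sets, DDIT3 is higher in set A, ASNS and CTH are higher in set B, and CXCL10 is lowest in set B.

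Across the genome, 703 of 18274 genes, or 3.85%, were higher in every array of set A than in any array of set B, and 600 genes, or 3.28%, were lower in every array. These percentages are the background for the counts of listed genes below, and nothing is read from them, since the sets were chosen on the same values. The median difference over all genes was -0.02, at 0.02 over the brighter genes (mean of 7.90 or more) and -0.06 over the dimmer. Over all genes, 44.27% lay above 0, which is the background for counts of listed genes above or below 0. Large differences leaned one way. Of genes whose sets did not overlap, 15 were higher in set A by 1 or more and 0 were lower by 1 or more, while 111 and 6 passed 0.5.

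**Figure D3:**
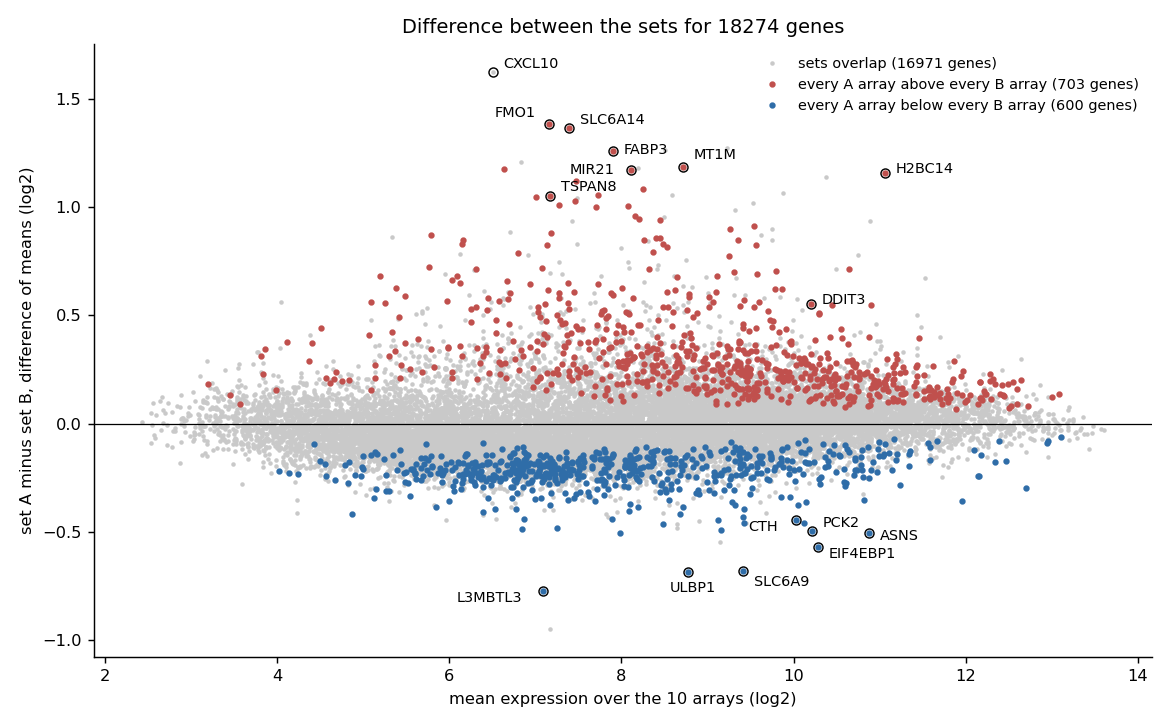
For 18274 genes, the mean log2 expression over the 10 arrays (x axis) and the difference of means, set A minus set B (y axis), with the 703 genes wholly higher in set A in red and the 600 wholly lower in blue. CXCL10 (1.62) has the largest difference but its sets overlap, and L3MBTL3, at -0.77, is the lowest of the genes without overlap.

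The 15 genes that stood furthest above set B in set A include enzymes, carriers and secreted proteins, and all but MIR21 lay below the other 14 arrays in set B. FMO1, a flavin monooxygenase of drug metabolism, was 8.14, 8.02, 8.21 and 7.59 in set A and 6.29 to 6.94 in set B, a difference of 1.38 or 2.61-fold. FABP3, a carrier of fatty acids, was 8.39 to 8.83 in set A and 6.56 to 8.15 in set B. AADAC, an arylacetamide deacetylase of the hepatocyte endoplasmic reticulum, averaged 8.91 ± 0.27 (SD, n = 4) and 7.82 ± 0.42 (SD, n = 6). For these 3 genes set A was within 0.47 of the mean of the other 14 arrays, and set B was 0.79 to 1.04 below it.

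The transporter SLC6A14, which takes up neutral and basic amino acids, differed by 1.36. Its 3 lowest values, 6.35, 6.07 and 5.32, were those of the closest 3 arrays of set B, and the difference without them was 0.43. The vanin VNN2 went from 1.18 to 0.53 and FABP3 from 1.26 to 0.70 on the same exclusion. FMO1 kept a difference of 1.32 and NCKAP5 one of 0.92, from 1.38 and 1.03. SERPINA7, the thyroxine-binding globulin that liver cells secrete, differed by 1.01 and the sucrase-isomaltase SI by 1.00. HAO2, a peroxisomal hydroxyacid oxidase, differed by 1.05, the tetraspanin TSPAN8 by 1.05, the keratin KRT23 by 1.05 and the GABA receptor subunit GABRB1 by 1.12.

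**Figure D4:**
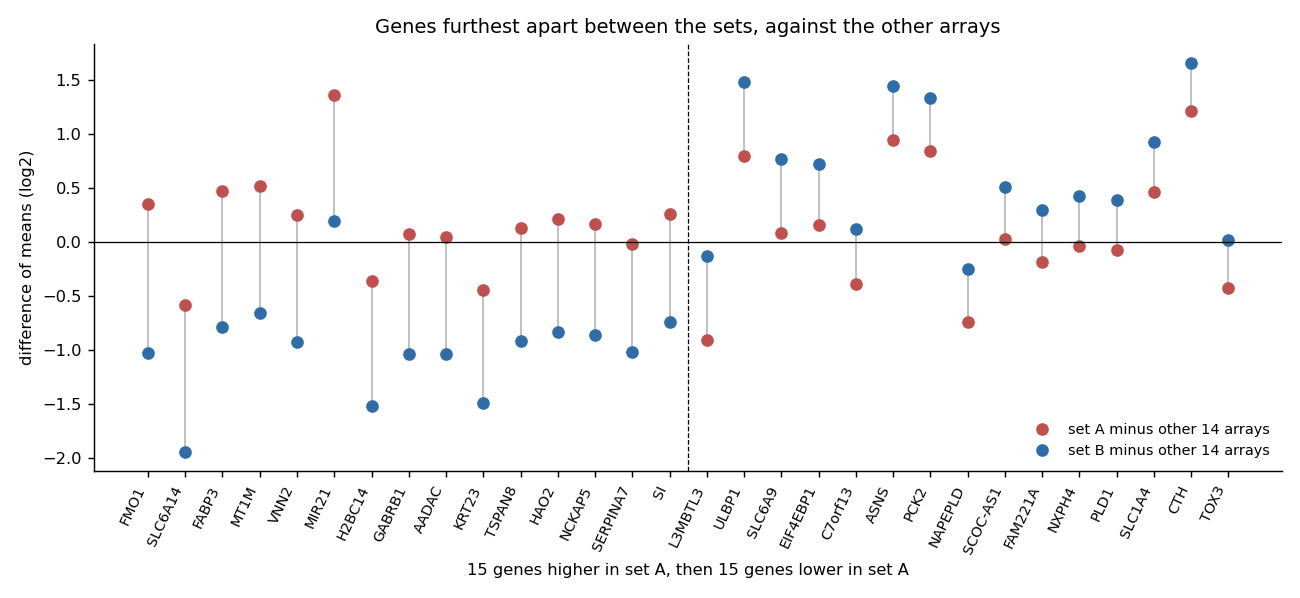
Differences of means from the other 14 arrays for set A (red) and set B (blue), for the 15 genes most higher and the 15 genes most lower in set A without overlap. Both differences share the same 14 arrays; among the 15 higher genes, set B lies below 0 for all but MIR21, and among the 15 lower genes ULBP1, ASNS, PCK2, SLC1A4 and CTH lie furthest above 0 in set A (0.47 to 1.21).

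The 15 genes furthest below set B in set A include ASNS and CTH and several carriers and enzymes that were high in set B. SLC6A9, the glycine transporter GLYT1, was 8.91 to 9.06 in set A and 9.42 to 9.92 in set B, a difference of -0.68, and its mean in the other arrays was 8.91. EIF4EBP1, the 4E-BP1 repressor of cap-dependent translation that mTORC1 restrains, was 9.81 to 10.10 in set A and 10.29 to 10.78 in set B, against 9.78. Set A thus lay within 0.16 of the other arrays for both genes, while set B lay 0.77 and 0.73 above them. PCK2, the mitochondrial phosphoenolpyruvate carboxykinase, differed by -0.49, and was above the other arrays by 0.85 in set A and by 1.34 in set B. SLC1A4, a carrier of serine and alanine, differed by -0.46.

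ULBP1, a stress ligand for the NKG2D receptor of natural killer cells, was 8.13 to 8.62 in set A and 8.66 to 9.57 in set B, and at most 7.90 in the other arrays. L3MBTL3, a reader of methylated lysines, had the most negative difference of the genes without overlap, at -0.77, and here set A was the form that stood apart. Its values were 6.71, 6.77, 6.29 and 6.73 in set A and 7.17 to 7.59 in set B, and the other arrays averaged 7.53. NAPEPLD, which releases N-acylethanolamines, and the nuclear factor TOX3 had the same order, with set A 0.74 and 0.42 below the other arrays and set B 0.25 below and 0.02 above. Of the remaining genes of the 15, FAM221A differed by -0.48, NXPH4 by -0.46, the phospholipase PLD1 by -0.46, C7orf13 by -0.51 and SCOC-AS1 by -0.49.

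Of 15 measured regulators of the stress response, 2 were wholly higher in set A, 1 was wholly lower and 12 overlapped. Over all genes, 3.85% were wholly higher and 3.28% wholly lower. The median difference of the regulators was 0.06, and -0.01 without the closest 3 arrays of set B. PPP1R15A, or GADD34, which returns eIF2 to its unphosphorylated form, was 9.86, 10.19, 9.82 and 9.86 in set A and 9.07 to 9.70 in set B. Its mean in set B was 0.16 above the other arrays, against 0.72 in set A, and the difference of 0.56 was 0.32 without the closest 3 arrays of set B. TRIB3, a pseudokinase that dampens ATF4 and AKT signalling, was 9.11 to 9.26 in set A and 9.29 to 9.96 in set B, a difference of -0.39. ATF3 differed by 0.39 with overlap, and by 0.21 without those 3 arrays.

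Among 10 eIF2 kinases and translation factors, the amino acid sensor EIF2AK4, or GCN2, was wholly higher in set A, by 0.23, and EIF4EBP1 was wholly lower. The kinase EIF2AK2, or PKR, differed by 0.31 and EIF2AK3, or PERK, by 0.24, both with overlap. Of 15 mTOR brakes and components, SESN2 was the 1 whose sets did not overlap. This leucine sensor was 9.63 to 9.89 in set A and 9.22 to 9.58 in set B, against a mean of 8.60 in the other arrays. RRAGC, a GTPase that carries the amino acid signal to mTORC1, differed by 0.30 with overlap. The median of the 15 was 0.02 and turned sign under repeated quantile normalization.

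Endoplasmic reticulum chaperones were near level between the sets. Of 22 measured, 18 lay above 0 with a median of 0.03, which turned sign without the closest 3 arrays of set B. HERPUD1, of the degradation complex, was wholly higher in set A, by 0.24. DERL3 differed by -0.25, and SEL1L and DNAJB9 by 0.16 each, all with overlap.

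Most genes that make amino acids averaged lower in set A. Of 13 measured genes of serine, asparagine and one-carbon synthesis, 10 lay below 0, with a median of -0.19, and 4 were wholly lower: ASNS, PSAT1, PHGDH and SHMT2. PSAT1, the aminotransferase of serine synthesis, was 11.70 to 11.81 in set A and 12.00 to 12.24 in set B. PHGDH, which opens that pathway, was 12.50 to 12.57 in set A and 12.69 to 12.94 in set B. Averaged over the list, set A lay 0.20 to 0.26 above the mean of the other arrays and set B 0.34 to 0.52, without overlap between the sets. The other arrays themselves ran from -0.17 to 0.28 on this scale, so set A lay within their range. The mitochondrial folate enzyme ALDH1L2 had the widest difference of the list, at -0.95, or -0.61 without the closest 3 arrays of set B, but its sets overlapped.

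Transport and use of amino acids followed in part. Of 14 transporters, 11 lay below 0 with a median of -0.16. SLC6A9, SLC1A4, the glutamine carrier SLC1A5 and SLC38A1 were wholly lower in set A, and SLC6A14 was wholly higher. The cystine importer SLC7A11 was far above the other arrays in both sets, by 1.15 in set A and 1.40 in set B, with overlap between the sets. Among 12 measured genes of cysteine and glutathione, 8 lay below 0 and 3 were wholly lower, CTH, SLC1A4 and SLC1A5. Of 19 cytosolic aminoacyl-tRNA synthetases, which charge tRNAs with amino acids, 16 lay below 0 with a median of -0.09. SARS1, AARS1, GARS1, YARS1 and IARS1 were wholly lower and KARS1 was wholly higher. The median was -0.13 under repeated quantile normalization and -0.04 without the closest 3 arrays of set B.

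Most inflammatory genes averaged lower in set B than in set A, and the medians of the 3 inflammatory lists were smaller without its closest 3 arrays. Of 14 chemokines, 13 lay above 0 in the difference of set A from set B, with a median of 0.61, yet 0 of them were free of overlap. Without the closest 3 arrays the median was 0.14, with 10 of 14 above 0. CXCL8, which draws neutrophils, was 10.03, 10.33, 10.18 and 10.02 in set A. In set B the closest 3 arrays had 9.07, 8.16 and 8.43, and the other 3 had 9.32, 9.29 and 10.48. The highest of these was again silymarin replicate 1 at 24 h, and it exceeded every array of set A. CCL20 was 11.20 to 11.58 in set A, and 10.15, 9.46 and 9.59 in the closest 3 arrays of set B.

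Most subunits and feedback inhibitors of NF-kB also averaged higher in set A. Of 14 subunits and inhibitors, 12 lay above 0, with a median of 0.19 that was 0.07 without the closest 3 arrays. TNFAIP3, or A20, was 8.81 to 9.27 in set A and had a median of 8.13 in set B, a difference of 0.95, or 0.53 without the closest 3 arrays. NFKBIA, which holds NF-kB in the cytoplasm, differed by 0.46, or 0.22 without them. The subunit NFKB2 differed by 0.41, but by -0.06 without the closest 3 arrays, so that its direction rested on them. NFKBIZ was wholly higher in set A, by 0.26. Of 16 inflammatory effectors, 12 lay above 0 with a median of 0.30, which was 0.11 without the closest 3 arrays. TNFRSF9 differed by 1.26, IL18 by 0.86 and the adhesion molecule ICAM1 by 0.78, all with overlap. Without the closest 3 arrays these differences were 0.55, 0.61 and 0.20. BMP2 was wholly higher in set A, by 0.51, or 0.32 without those arrays.

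The median of interferon-stimulated genes also lay above 0, but it was small and changed sign without the closest 3 arrays of set B. Of 23 measured, 15 lay above 0 with a median of 0.05, or -0.01 without the closest 3 arrays, and 0 were free of overlap. GBP2, a guanylate-binding protein, was the widest at 1.21, or 0.67 without those arrays, while IFIT2, IRF7 and OAS2 lay between -0.14 and -0.12. Acute phase and complement genes had a median of 0.06 over 20 members, with 15 above 0 and 0 free of overlap. The complement inhibitor C4BPA differed by 0.75 and haptoglobin, HP, by 0.64, which were 0.40 and 0.05 without the closest 3 arrays.

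Most immediate early genes, the first transcription factors and phosphatases that follow a signal, averaged higher in set A. Of 24 measured, 20 lay above 0 with a median of 0.29, and 0.20 without the closest 3 arrays. KLF6, JUNB, DUSP1, JUN and JUND were wholly higher and none was wholly lower. KLF6 was 9.27, 9.40, 9.41 and 9.38 in set A and 8.67 to 9.08 in set B, against 8.62 to 9.10 in the other arrays. JUNB was 9.41 to 9.88 in set A and 8.82 to 9.38 in set B. The phosphatase DUSP1 was 11.03 to 11.25 in set A and 10.51 to 10.95 in set B. EGR1 differed by 0.68 with overlap, or 0.43 without the closest 3 arrays of set B, and silymarin replicate 1 at 4 h had the lowest value of set A, 8.86 against 9.53 to 9.59.

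Genes listed together with matrix and cytoskeletal targets of YAP and TGF-beta varied widely. The list also holds KRT23, PALMD, ANXA1 and GLIPR1, and whether these are such targets was not tested. Of 15 measured, 12 lay above 0 with a median of 0.42, or 0.20 without the closest 3 arrays. PALMD and KRT23 were wholly higher in set A. PALMD was 0.52 below the other arrays in set A and 1.46 below in set B. ANXA1, GLIPR1 and the cardiac ankyrin repeat gene ANKRD1 differed by 1.18, 1.27 and 1.14 with overlap, which were 0.77, 0.46 and 0.55 without the closest 3 arrays. TGFB2 itself was below the other arrays in both sets, by 1.17 and 1.48.

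**Figure D5:**
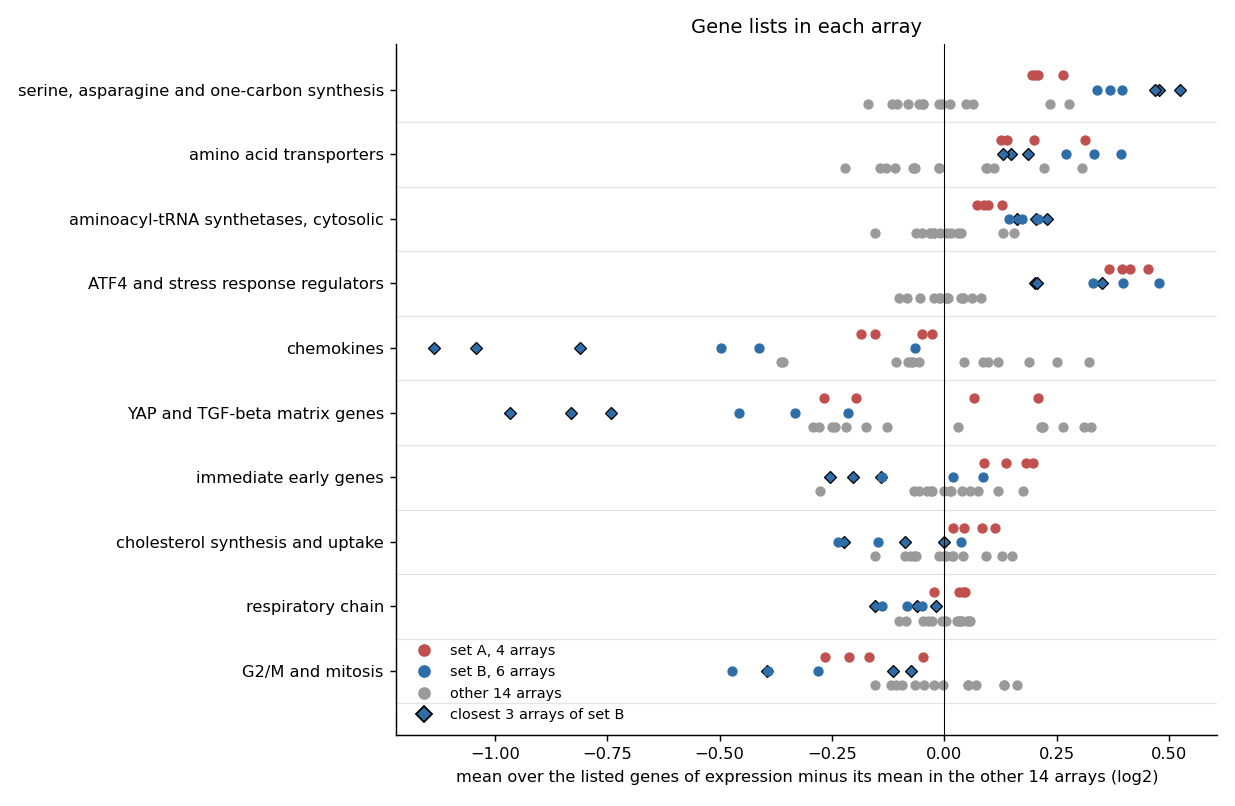
Mean log2 expression of the measured members of 10 gene lists in each array, relative to the mean of the other 14 arrays, for set A (red), set B (blue, the closest 3 arrays as outlined diamonds) and the other arrays (grey). For serine and asparagine synthesis, set A runs from 0.20 to 0.26, set B from 0.34 to 0.52 and the other arrays from -0.17 to 0.28. The closest 3 arrays of set B lie furthest left for chemokines.

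Most genes of cholesterol synthesis and of the respiratory chain averaged slightly higher in set A. Of 17 measured genes of cholesterol synthesis and uptake, 16 lay above 0 with a median of 0.13, and 0.14 without the closest 3 arrays. STARD4, HMGCS1, IDI1 and MVK were wholly higher. The cholesterol carrier STARD4 was 9.63 to 9.79 in set A and 9.06 to 9.40 in set B. HMGCS1, of the first steps of the mevalonate pathway, was 12.00 to 12.10 in set A, 11.46 to 11.93 in set B and 11.92 to 12.30 in the other arrays. Of 25 respiratory chain subunits, 23 lay above 0 with a median of 0.11, and NDUFS4 and COX6C were wholly higher. Fatty acid genes had no common direction, with 10 of 19 above 0, 9 below and 0 free of overlap. Of these, PPARA differed by -0.41 and ELOVL6 by 0.28.

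Genes of xenobiotic and metal handling included several wholly higher in set A. CYP1A1, the target of the aryl hydrocarbon receptor, was 10.13 to 10.34 in set A. It was 9.18, 9.35 and 9.24 in the closest 3 arrays of set B and 9.88 to 10.05 in its other 3, and at most 9.99 in the other 14 arrays. NQO1, a quinone reductase under NRF2, was 9.05 to 9.19 in set A and 8.10 to 8.94 in set B. It was the 1 of 19 NRF2 targets without overlap, and their median was 0.01, which changed sign under quantile normalization and cyclic loess and without some arrays. MT1M, a metallothionein that binds zinc and copper, was 9.37, 9.95, 8.96 and 9.41 in set A and 7.75 to 8.55 in set B. MT1F and MT2A were also wholly higher, by 0.24 and 0.12, among 9 measured genes of metal handling whose median was 0.07.

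Probe sets for microRNA genes read the precursor transcript, not the mature RNA. Of 161 such genes, 5 were wholly higher in set A and 1 was wholly lower, and the median was -0.04. Over all genes, 3.85% were wholly higher and 3.28% wholly lower, and neither count exceeds that share. MIR21 was the furthest apart, at 8.63, 9.12, 8.76 and 8.75 in set A and 7.34 to 8.25 in set B, a difference of 1.17. The other 14 arrays ran from 6.64 to 7.96, below every array of set A. VMP1, the protein-coding gene that overlaps the MIR21 locus, differed by 0.05 and overlapped. MIR181B1 was 7.94 to 8.43 in set A and 7.21 to 7.89 in set B, and MIR122, the liver microRNA that hepatitis C virus needs, was 7.88 to 8.31 and 7.46 to 7.84. MIR215 and MIR30D were at 3.24 to 3.56 in set A, near the low end of the scale, and differed by 0.18 and 0.13. MIR182 was lower in set A, by 0.23, and was also dim, averaging 4.10 in set A and 4.34 in set B. The genes other than MIR21 were chosen after their values were seen.

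The mature 5p products of the 3 brightest higher genes and of MIR182 are printed from RefSeq (GRCh38.p14), because they show that no seed, bases 2 to 8 in capitals, is shared among the 4. They lie on chromosomes 17, 1, 18 and 7, in the order printed, and the decimal after each chromosome number is not part of its name.

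hsa-miR-21-5p, chr17.0:59841273-59841294, plus strand: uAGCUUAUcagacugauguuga

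hsa-miR-181b-5p, chr1.0:198858925-198858947, minus strand: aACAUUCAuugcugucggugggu

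hsa-miR-122-5p, chr18.0:58451088-58451109, plus strand: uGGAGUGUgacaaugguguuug

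hsa-miR-182-5p, chr7.0:129770447-129770470, minus strand: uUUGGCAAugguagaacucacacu

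Some histone H2B genes were lower in set B. H2BC14 was 11.68, 11.92, 11.66 and 11.75 in set A, 9.88 to 10.94 in set B and 11.55 to 12.43 in the other arrays. Set A lay inside the range of the other arrays and set B below it. Of 17 H2B genes measured, H2BC11, H2BC14, H2BC26 and H2BC3 were wholly higher in set A and none was wholly lower. H2A genes had 0 of 14 without overlap and H4 genes 2 higher and 1 lower of 13. Histone genes are close copies of each other, so probes may be shared between them.

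Genes of G2/M had a median below the other arrays in both sets. Of 31 G2/M genes, 29 lay above 0 in the difference of set A from set B, with a median of 0.12, and 0 were free of overlap. Against the other 14 arrays the median was -0.17 in set A and -0.29 in set B. Here the closest 3 arrays of set B were not the extreme ones, since without them the median difference was 0.19 and all 31 genes lay above 0. KIF20A, a kinesin of cytokinesis, differed by 0.27 and cyclin CCNB2 by 0.23. Of 31 genes of G1/S and replication, 19 lay above 0 with a median of 0.04. Ribosome biogenesis had a median of 0.06 over 20 genes, with RRS1 at -0.34 wholly lower and FBL at 0.12 wholly higher.

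Further lists had medians from -0.09 to 0.19. Of 18 p53 targets, SESN2 and the BH3-only gene PMAIP1 were wholly higher in set A, BBC3 and ZMAT3 wholly lower, and the median was 0.08. Of 9 glucocorticoid targets, DUSP1, SGK1 and ERRFI1 were wholly higher with a median of 0.19. Of 19 hypoxia targets the glucose carrier SLC2A1 was wholly lower, with a difference of -0.21, and the median was -0.03, or 0.02 without the closest 3 arrays of set B. TXNIP, a brake on glucose uptake, was low in both sets, 0.84 below the other arrays in set A and 0.79 below in set B. Of 10 hepatitis C virus host factors, the entry factors SCARB1, NPC1L1 and EPHA2 and the cyclophilin PPIA were wholly higher in set A, by 0.24 to 0.35, and the median was 0.12. The remaining medians were -0.03 for 8 secreted stress factors, 0.00 for 13 cytosolic heat shock genes, 0.03 for 21 autophagy and lysosome genes, 0.03 for 9 bile acid genes, -0.09 for 14 glucose-sensing genes and 0.14 for 12 drug metabolism genes. Those of the secreted stress factors, heat shock, autophagy and bile acid genes changed sign under at least 1 alternative.

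The listed hepatocyte genes did not separate the sets. Liver genes outside that list, such as AADAC, SERPINA7 and MIR122, were wholly higher in set A. ALB was 13.27 to 13.41 in set A and 13.35 to 13.42 in set B, and AFP 13.10 to 13.18 and 13.05 to 13.24. Of 20 listed hepatocyte genes, 0 were without overlap, the median was -0.03 and APOH was widest at 0.50, or 0.17 without the closest 3 arrays of set B. Markers of other cells were dim. Averaged over 11 leukocyte markers the level was 6.61 to 6.73 in set A and 6.69 to 6.77 in set B, and LYZ, averaging 12.3 in set A and 12.1 in set B, was the 1 bright member, while PTPRC, the pan-leukocyte CD45, averaged 4.36 and 4.25. For 11 endothelial markers the level was 5.56 to 5.69 and 5.68 to 5.90, and for 11 fibroblast and stellate markers 6.18 to 6.28 and 6.21 to 6.38. In endothelial markers 10 of 11 lay below 0 with a median of -0.15, beside -0.06 over the dimmer genes at large, and the receptor TIE1 was wholly lower in set A. Of the leukocyte markers 8 of 11 lay below 0 and of the fibroblast and stellate markers 9 of 11, with medians of -0.01 and -0.10. The part of other cells in the differences was not tested.

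Both treatments occurred in both sets, by the deposited labels. These were used as given, and whether any sample titles were exchanged was not tested. Set A has 2 arrays labelled DMSO and 2 labelled silymarin, and set B has 4 and 2 (Fisher's exact test, two-sided, p = 1). At 4, 8 and 24 h, set A has 2, 1 and 1 arrays and set B 1, 4 and 1. Silymarin was compared with DMSO over the 10 arrays in limma, with the set as a covariate, over all 18274 genes. It called 0 genes at an adjusted p under 0.05, or 0.0% of genes, and 1009 passed 0.05 before adjustment, beside the 914 that 5% of genes would make. The smallest adjusted p was 0.859, for HSPA1L, a heat shock protein, which was 0.33 lower with silymarin (SE 0.07).

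CXCL10 averaged 7.21 in the 4 silymarin arrays and 6.04 in the 6 DMSO arrays, a difference of 0.93 (SE 0.30) after the set was taken into account, with limma's adjusted p = 0.859. DDIT3 differed by 0.17 (SE 0.12), ASNS by -0.12 (SE 0.07), DDIT4 by 0.14 (SE 0.12) and CTH by -0.04 (SE 0.09), with limma's adjusted p between 0.871 and 0.956. Leaving out silymarin replicate 3 at 8 h gave 1 called gene, LINC00314, with limma's adjusted p = 0.0256, and leaving out any other array gave 0. The 5 arrays at 8 h against the 3 at 4 h, with the set as a covariate, also gave 0 called genes, or 0.0%, and 268 with an unadjusted p under 0.05. The smallest limma adjusted p was 1.000, for SOSTDC1, which was 0.34 higher at 8 h (SE 0.08). A p that misses the threshold does not show that the labels made no difference within these sets.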

How the data were processed

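RNA of 24 Huh7.5.1 samples was read on 24 arrays. The deposited log2 values come from RMA in the oligo package, as named without versions in the submitters' processing notes. RMA subtracts background, normalizes by quantiles over arrays and summarises probes, which evens out array-wide shifts. A genome build is not given in the sources used here. The values were used as deposited.

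Of 28869 probe sets, 19302 carried 1 gene symbol in the platform annotation, 1729 several, and 7838 were not listed. Where 757 genes had several probe sets, the one with the highest mean was kept, leaving 18274 genes. The set members, the 38 gene lists and the markers were chosen with earlier results of these data known. Sets A and B were compared by difference of means and by overlap, with no test. Labels were tested with limma 3.58.1 (lmFit, eBayes; R 4.3.3) over the 10 arrays, with the set as covariate, two-sided and adjusted by Benjamini-Hochberg. The fit of treatment had 7 residual and 5.75 prior degrees of freedom, and that of time 6 and 6.13. The limma fit was tested on simulated data holding known changes. Precision is limited by the number of arrays.

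Named genes were DDIT4, the 4 markers, the 15 genes per direction furthest apart without overlap, the 4 members of each list with the largest difference, and the gene with the smallest p for each label. Others, such as ATF4, CHAC1, VMP1 and the wholly separated list members, were chosen after their values were seen. Some list members that met the rule are not described, such as CCN1 (0.75) and GDF15 (0.45), both with overlap. Alternatives were re-centring, cyclic loess, quantile normalization done again, dropping dim genes (mean under 7.90), mean probe sets, other covariates, trend and robust settings, an adjusted p under 0.01, a replicate block and leaving out each array. Promoter and microRNA sequences are from RefSeq (GRCh38.p14). Figures used matplotlib 3.10.9 in Python 3.11.15.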

Additional observations from a re-analysis of the deposited data

Results flagged for a closer look

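In 33 genes, the lowest and highest array of each set was compared with the rest of its set, 66 groups in all, and 2 arrays stood apart by Dixon's criterion, which chance meets in about 1 of 20 groups. GABRB1, a GABA receptor subunit, was 6.31 in DMSO replicate 4 at 8 h, and the other 5 arrays of set B lay between 7.01 and 7.33. L3MBTL3, a reader of methylated lysines, was 6.29 in silymarin replicate 1 at 8 h, and the other 3 arrays of set A lay between 6.71 and 6.77.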

How the results depend on the processing

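The 703 genes wholly higher in set A became 746 to 1080 on leaving out 1 array, and the 600 wholly lower became 668 to 1375, the most without DMSO replicate 4 at 4 h in each case; fewer arrays make separation easier by construction. Leaving out dim genes, which keeps 9137 genes, gave 533 higher and 277 lower. Repeated quantile normalization gave 604 higher and 715 lower, and cyclic loess 726 and 563. Which direction held more genes thus depended on the normalization. With set B reduced to 3 arrays, an alternative chosen after seeing the data, 1612 were higher and 1551 lower. Of 516 values for 33 genes, 512 moved by less than 1 SD. Of 588 list medians, 582 did, and 41 medians of 12 lists near 0 changed sign. The label comparisons called 0 genes under every alternative, except 0 to 1 for treatment on leaving out an array, the 1 without silymarin replicate 3 at 8 h.

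Over 7 pairs of equal replicate number and opposite treatment, deviations from the mean of each set correlated between -0.45 and 0.10. Subtracting the mean of a few arrays lowers r within a set, and most pairs joined different times. Whether replicate numbers pair arrays was therefore not settled. With the replicate block, 0 genes were called for treatment, with 2334 at an unadjusted p under 0.05 and a smallest limma adjusted p of 0.258, and 0 for time, with 227.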

Other observations

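Outside the 18274 genes, 10595 probe sets carried several symbols, none, or belonged to a gene already read by a brighter one. Of these, 2.49% were wholly higher in set A than in set B and 2.11% wholly lower, with a median difference of -0.01. Box H/ACA small nucleolar RNA genes, which guide the modification of ribosomal RNA, had 4 of 61 wholly higher in set A, SNORA14A, SNORA15, SNORA50A and SNORA60, and 0 wholly lower. Box C/D genes had 1 of 115, SNORD59B. Of 54 ribosomal protein genes of the large subunit, RPL22 and RPL22L1 were wholly higher and RPL10A wholly lower, and of 40 genes of the small subunit 0 were separated. Over the 18274 genes, 3.85% were wholly higher and 3.28% wholly lower. The counts for box C/D and ribosomal protein genes do not exceed these shares.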
